A study of Mus musculus with 9 samples.

Results

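Wnt receptors, effectors and regulators were followed in sorted mouse microglia as 40 genes, taken by their symbols from the 23238 symbols in the count files. Every one of the 40 symbols was found, each on a single entry of every file, and 33 of them had enough reads to be tested among 12292 tested genes. There were 9 libraries, 3 in each of 3 groups, and each library came from a pool of 3 mice. All mice were wild-type, and the study used female C57BL/6N mice at 12 weeks of age. Normal mice were not treated. For the NMO group, the striatum of 1 side was injected with patient IgG (NMO-IgG) and human complement, a model of neuromyelitis optica, in which antibodies to aquaporin-4 damage astrocytes. The NMO+CL group was given clodronate liposomes into the peritoneum some hours before the same striatal injection, to remove monocytes and macrophages of the blood. Brains were taken at day 1 and cells positive for CD45, CD11b and P2ry12 were sorted. No group with control IgG, or with liposomes free of clodronate, was analysed here, so that surgery, antibody and complement cannot be told apart, nor can clodronate and liposomes.

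Wnt proteins are secreted, lipid-modified ligands that bind Frizzled receptors and their co-receptors Lrp5 and Lrp6. Without ligand, a complex of Axin, Apc, Gsk3 and casein kinase 1 marks beta-catenin for destruction. With ligand, Dishevelled draws this complex to the membrane, beta-catenin accumulates, enters the nucleus and replaces Groucho co-repressors on TCF/LEF factors, which then switch on targets such as Axin2. In the brain the pathway is best known for blood vessel barrier formation, for the oligodendrocyte lineage and for its effects on microglial activation.

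The libraries held 5788234 to 7837219 counts, of which the ribosomal RNA entry Rn45s took 16.0% to 31.0%. Of 12 microglia markers, all were tested and their summed level was 38080 to 43660 CPM (counts scaled to the size of the library) in Normal, 32380 to 38250 in NMO and 22620 to 32830 in NMO+CL. In NMO+CL against Normal, 8 of these 12 were lower at an adjusted p under 0.05. Markers of other cells were far lower in sum. They reached at most 136 CPM over 10 monocyte genes, 219 CPM over 9 astrocyte genes, 141 CPM over 10 oligodendrocyte genes and 219 CPM over 9 neuronal genes. The 10 neutrophil genes summed to 100.5 to 584 CPM in Normal, 155 to 481 in NMO and 299 to 1365 in NMO+CL. The 8 border macrophage genes summed to 160 to 307, 8.60 to 192 and 214 to 407 CPM in the same order. The 13 lymphocyte genes stayed at or under 22.7 CPM and the 15 endothelial and mural genes at or under 137 CPM. Cd3e, Olig1 and Olig2 had 0 counts in every library.

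The 40 members were first examined for detection. At least 1 read was counted in all 9 libraries for 29 members, and 20 members had at least 100 counts in each library. Every library held reads of 32 to 38 members. The 20 well-counted members were mostly parts of the shared machinery inside the cell, from Dvl1 and the destruction complex kinases to Ctnnb1, Tcf7l2, Tle3, Tle4, Bcl9, Bcl9l, Pygo2 and Nlk, with Lrp6, Ryk and Wls at the membranes. No Frizzled receptor and no ligand was among them. Reads were lacking in at least 1 library for 11 members, namely Fzd1, Fzd2, Fzd5, Ror2, Dvl3, Axin2, Tcf7, Tcf7l1, Rnf43, Wnt5a and Wnt5b. With 0 counts observed, up to 3 are possible at 95% confidence, or 0.358 to 0.504 CPM in these libraries, so a gene at 0 was not detectable at this depth rather than shown to be absent.

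**Figure D1:**
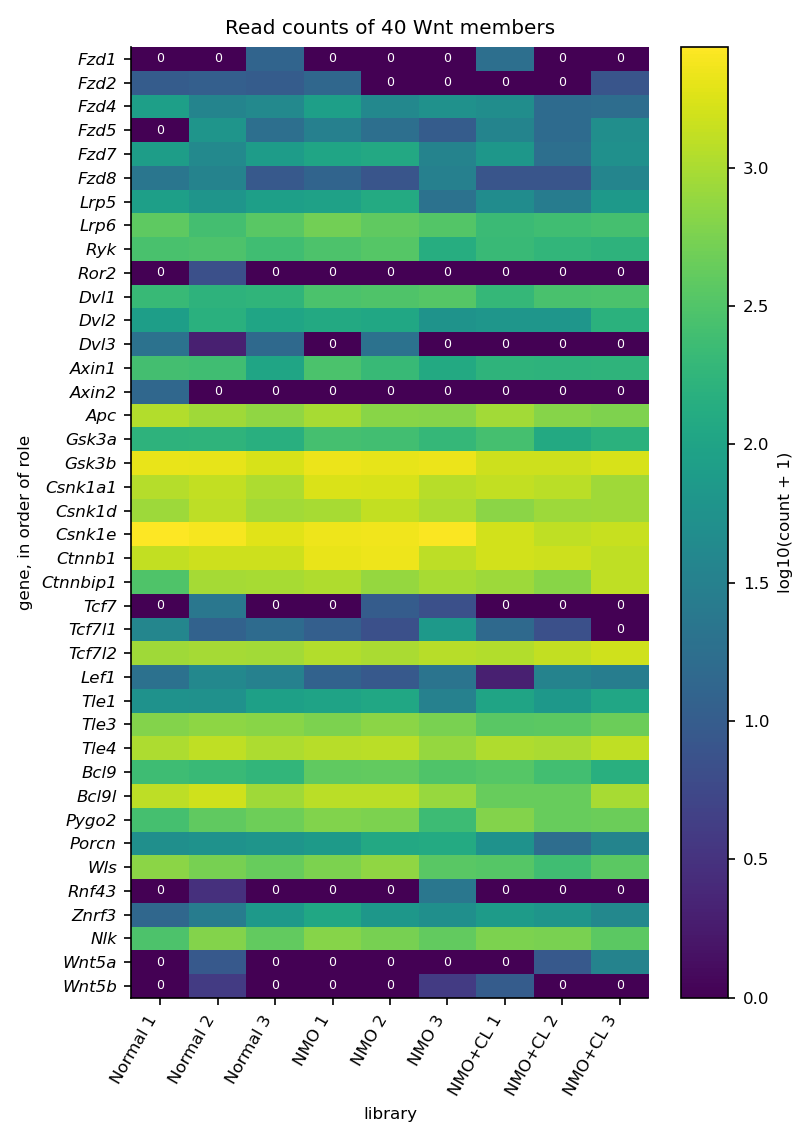
Read counts of the 40 members as log10(count + 1), by gene in order of role on the vertical axis and by library on the horizontal axis, with 0 written where no read was counted. Reads of 11 members were lacking in at least 1 library, and the ligands, Axin2, Rnf43, Ror2, Fzd1 and Tcf7 were at 0 in most libraries.

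The 7 members too low to test included both ligands and the feedback genes Axin2 and Rnf43. Axin2, a scaffold of the destruction complex and itself a widely used readout of beta-catenin signalling, had 13 counts in Normal replicate 1 and 0 in the 8 other libraries. Rnf43, a ubiquitin ligase that removes Frizzled from the surface and is also a target gene, had 2 counts in Normal replicate 2, 22 in NMO replicate 3 and 0 elsewhere. Both were therefore near the floor in every group, and their readings say nothing of a change. Wnt5a, a ligand mainly linked to signalling without beta-catenin, had 8 counts in Normal replicate 2, 8 in NMO+CL replicate 2 and 33 in NMO+CL replicate 3. Wnt5b had 3, 3 and 9 counts in Normal replicate 2, NMO replicate 3 and NMO+CL replicate 1, in that order. Tcf7, a TCF/LEF factor best known from T cells, had 22 counts in Normal replicate 2, 9 and 6 in NMO replicates 2 and 3, and 0 in the rest. Fzd1 was seen in 2 libraries, with 12 counts in Normal replicate 3 and 17 in NMO+CL replicate 1, and Ror2, a receptor for Wnt5a, in 1 library with 6 counts.

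The first comparison, NMO against Normal, addressed whether Wnt genes in microglia differed after the striatal injection as a whole, surgery, antibody and complement together. At an adjusted p under 0.05 (edgeR quasi-likelihood test), 0 of the 33 tested members were higher and 0 were lower, against 0.472% of all tested genes higher and 0.0244% lower. DESeq2 and limma-voom also called 0 members. At an unadjusted p under 0.05 there was 1 member, Apc, or 3.03% of 33, where 9.51% of all tested genes passed. The libraries of the groups did not overlap for 6 members (18.2%), against 17.4% of all tested genes. Of these, Dvl1, Gsk3a and Bcl9 were above Normal and Ryk, Tle3 and Tle4 below it. The member median was -0.10 on the log2 scale, with all tested genes at -0.01, and 19 members (57.6%) had a value below 0, as had 50.7% of all tested genes. With library sizes scaled by totals alone, the member median was 0.0072 and that of all genes 0.098.

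The second comparison, NMO+CL against NMO, addressed the effect of clodronate liposomes within the model. At an adjusted p under 0.05, 0 members were called by edgeR, DESeq2 or limma-voom, where edgeR called 0.529% of all tested genes higher and 1.07% lower. At an unadjusted p under 0.05, edgeR found 4 members (12.1%), against 12.4% of all tested genes. Csnk1e, Porcn and Wls lay lower and Tcf7l2 higher. The groups did not overlap for 4 members (12.1%; all tested genes 17.1%), Tle4 above NMO and Lrp6, Csnk1e and Porcn below it. The member median was -0.21, with all tested genes at -0.005, and 22 members (66.7%) were below 0, as were 50.3% of all tested genes. Bcl9l, not called in the full fit (log2 fold change -0.56, adjusted p = 0.458), was called in 1 of 16 alternatives. That was without NMO+CL replicate 3, where it was lower by 1.09 on the log2 scale (adjusted p = 0.0242).

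The third comparison, NMO+CL against Normal, set the treated model against untreated microglia. It shares its Normal libraries with the first and its NMO+CL libraries with the second. Csnk1e, Tle3, Bcl9l and Wls were called lower at an adjusted p under 0.05, by 1.70- to 1.998-fold, and 0 members were called higher. DESeq2 called the same 4 genes, limma-voom all but Wls (adjusted p = 0.0515), and library totals alone left Csnk1e only. The 4 calls were 12.1% of the 33 tested members, where 4.43% of all tested genes were called lower and 4.78% higher. At an unadjusted p under 0.05, 6 members passed (18.2%; all tested genes 22.3%), namely the 4 called, Dvl3 and, in the other direction, Tcf7l2. The groups did not overlap for 9 members (27.3%; all tested genes 28.7%). Of these, 8 lay below Normal (24.2%; all tested genes 14.9%), counting Dvl3, namely Fzd2, Ryk, Dvl3, Gsk3b, Csnk1e, Tle3, Porcn and Wls, and Tcf7l2 lay above it (3.03%; all tested genes 13.8%). For Dvl3 the gap rests on 1 count in Normal replicate 2 against 0 in NMO+CL, where up to 3 are possible, so these libraries cannot be placed below it. The member median was -0.32, with all tested genes at -0.01, and 23 members (69.7%) were below 0, as were 50.6% of all tested genes. The number of calls depended on single libraries. It was 0 when replicate 1 or 2 of Normal or replicate 2 of NMO+CL was left out, 1 without NMO+CL replicate 1, 2 without Normal replicate 3 or NMO replicate 1, and 4 without any of the other three.

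**Figure D2:**
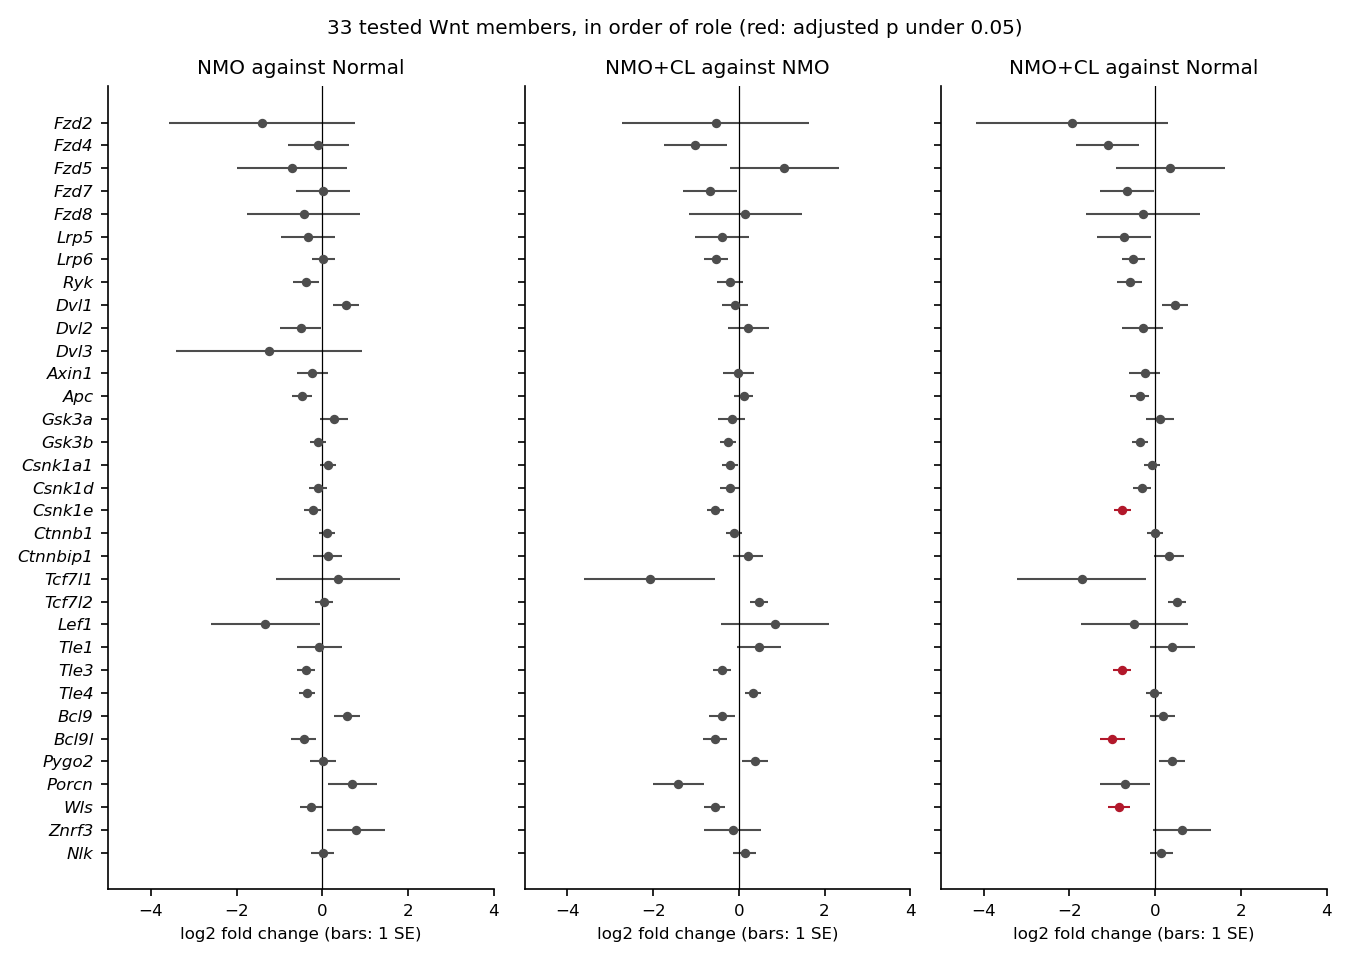
Log2 fold changes of the 33 tested members (horizontal axis) by gene in order of role, in the 3 comparisons, with bars of 1 standard error and red points for an adjusted p under 0.05. The 4 red points, Csnk1e, Tle3, Bcl9l and Wls, lie below 0 in NMO+CL against Normal, and Dvl3 is not drawn where all NMO+CL libraries were at 0.

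The 4 genes called lower act at different steps. Csnk1e (chromosome 15, 79417856 to 79455566, minus strand, GRCm38) encodes casein kinase 1 epsilon, which phosphorylates Dishevelled on the activating side of the pathway and also acts on Period proteins of the circadian clock. Its level was 434, 371 and 320 CPM in Normal, 278, 277 and 410 in NMO, and 232, 205 and 224 in NMO+CL. All 3 NMO+CL libraries lay below all 6 others, while NMO overlapped Normal through its replicate 3. The log2 fold change was -0.77 in NMO+CL against Normal (standard error 0.20, adjusted p = 0.0209), from 375 ± 57.0 to 220 ± 13.9 CPM (mean ± SD, n = 3). Against NMO it was -0.55 (standard error 0.20, adjusted p = 0.221), and NMO against Normal gave -0.22 (adjusted p = 0.849). In this bulk measurement, fewer cells of a type and less RNA per cell cannot be told apart.

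Tle3 (chromosome 9, 61372366 to 61418497, plus strand) encodes a Groucho co-repressor that holds TCF/LEF targets silent. Its level was 99.0, 106 and 113 CPM in Normal, 71.8, 81.1 and 90.0 in NMO, and 52.9, 60.3 and 72.6 in NMO+CL. NMO lay below Normal in every library, and NMO+CL overlapped NMO by a narrow margin, with its highest library just above the lowest of NMO. On the log2 scale it differed by -0.39 in NMO against Normal (adjusted p = 0.618), -0.39 in NMO+CL against NMO (adjusted p = 0.495) and -0.78 in NMO+CL against Normal (standard error 0.22, adjusted p = 0.0297).

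Bcl9l (chromosome 9, 44482825 to 44511896, plus strand) encodes a co-activator that ties beta-catenin to Pygopus proteins. Its level was 195, 231 and 150 CPM in Normal, 150, 144 and 129 in NMO, and 63.1, 69.5 and 156 in NMO+CL. NMO+CL replicates 1 and 2 lay far below all other libraries, whereas replicate 3 lay within the range of Normal, so the groups overlapped despite the call. The log2 fold change in NMO+CL against Normal was -0.999 (standard error 0.29, adjusted p = 0.0371), and -1.53 to -0.77 with a library left out. Bcl9l had a value of -0.56 against NMO (adjusted p = 0.458) and of -0.44 in NMO against Normal (adjusted p = 0.705). Exons at its 3′ end overlap Cxcr5 on the other strand in the annotation, and whether strand was used in counting is not given in the sources used here, so reads of the pair may be mixed.

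Wls (chromosome 3, 159839672 to 159938664, plus strand) encodes the carrier that brings lipid-modified Wnt proteins to the cell surface. Its level was 110, 79.9 and 73.7 CPM in Normal, 72.3, 87.5 and 58.3 in NMO, and 49.4, 38.8 and 59.1 in NMO+CL. NMO+CL lay below Normal in every library, and its highest library lay just above the lowest of NMO. The log2 fold change was -0.84 in NMO+CL against Normal (standard error 0.26, adjusted p = 0.0481), -0.57 against NMO (unadjusted p = 0.0398 and adjusted p = 0.366) and -0.27 in NMO against Normal (adjusted p = 0.862). Of the 4 genes called lower, Bcl9l and Wls are known to promote Wnt signalling or secretion and Tle3 to repress its targets.

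**Figure D3:**
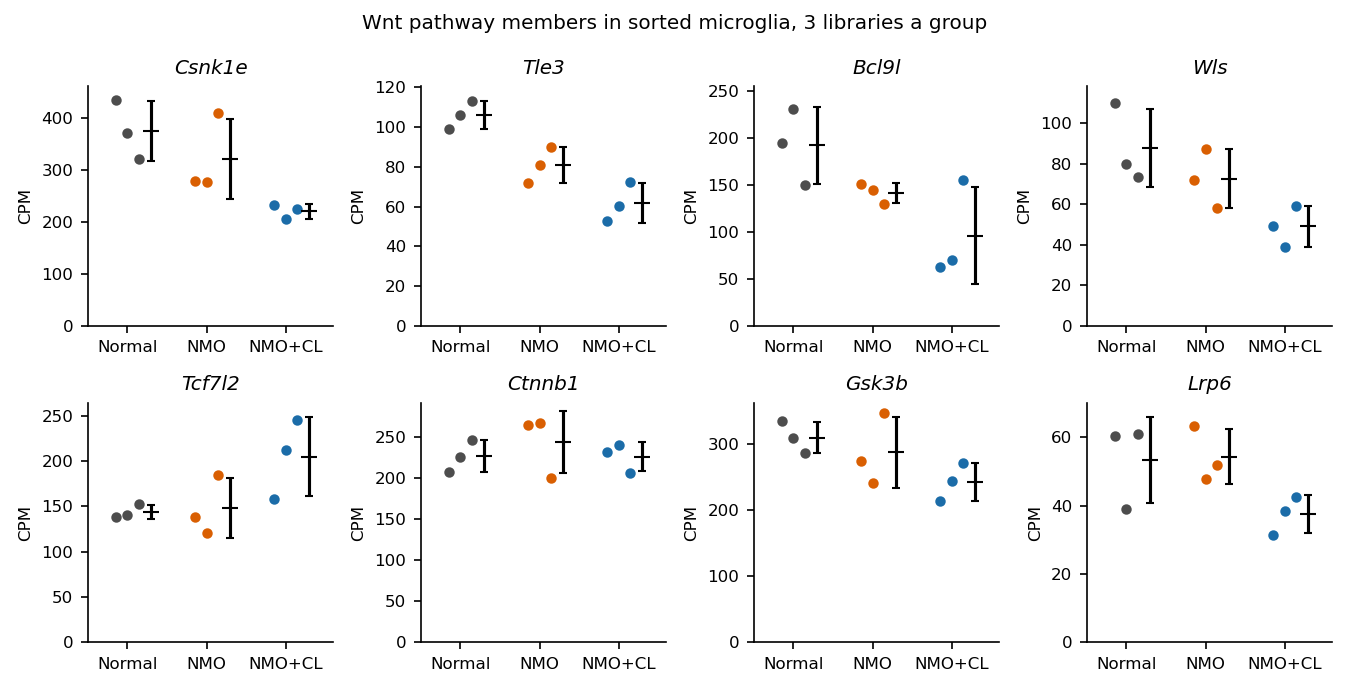
Level in CPM (vertical axis, from 0) of 8 members in the 9 libraries, with points for libraries and black bars for the mean and SD of 3 libraries. Csnk1e, Tle3 and Wls lie lower in all NMO+CL libraries than in all Normal libraries, NMO+CL replicate 3 of Bcl9l lies at 156 CPM, and Ctnnb1 overlaps between all groups.

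The fall in these genes coincided with the fall of microglia markers given above, of which 8 of 12 were lower in NMO+CL against Normal, and with changes in markers of other cells. The sorting marker P2ry12 was among the 8, at a mean of 2438 CPM in Normal and 352 in NMO+CL (adjusted p = 4.61e-07). In this contrast 1 of 10 monocyte markers tested was higher (Fn1, log2 fold change 2.45, adjusted p = 0.0218) and 1 of 11 endothelial and mural markers (Kdr, 1.37, adjusted p = 0.0418), while 7 of the 11 had values below 0, Cldn5, Pecam1 and Flt1 among them. Among astrocyte markers 2 of 6 were lower. These were Slc1a3 (-0.88, adjusted p = 0.0270) and Slc1a2, which had 120, 0 and 45 counts in Normal and 1, 0 and 0 in NMO+CL. Of the oligodendrocyte markers 1 of 5 was lower (Cnp, -1.23, adjusted p = 0.0258). These genes were named after their values were seen. The neutrophil, border macrophage and neuronal markers gave 0 calls by edgeR among 19 tested, with 5 at an unadjusted p under 0.05 (26.3%; all tested genes 22.3%). S100a8 and S100a9 lay higher, and Csf3r, Rbfox3 and Meg3 lower. The direction of Meg3 rested on Normal replicate 1, with 1065, 66 and 82 counts in Normal and 92, 64 and 123 in NMO+CL. Normal replicate 1 also stood apart for S100a8, at 1182 counts against 86 and 87 in the other Normal libraries. The median of the neutrophil sum was 128.8 CPM in Normal and 531 CPM in NMO+CL, with overlapping ranges. The part of cell composition in the results for Csnk1e, Tle3, Bcl9l and Wls was not tested.

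Promoters were read for the members from RefSeq (GRCm38.p6) as the 250 bases before a start, and 28 members had 44 such windows. They are shown for Csnk1e, Tle3 and Wls, called lower in NMO+CL against Normal, and for Axin2 as the standard target. Capitals mark GC boxes (GGGCGG on the strand shown or, read on the other strand, CCGCCC), and no window was among those given for Bcl9l.
Csnk1e, chr15:79442144-79442393, minus strand, the farthest upstream of 4 windows: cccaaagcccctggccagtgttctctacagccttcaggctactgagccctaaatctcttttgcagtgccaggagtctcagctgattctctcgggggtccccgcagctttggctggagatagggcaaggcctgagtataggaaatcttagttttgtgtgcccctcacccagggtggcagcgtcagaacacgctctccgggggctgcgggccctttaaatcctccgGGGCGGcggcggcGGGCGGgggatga
Tle3, chr9:61372116-61372365, plus strand: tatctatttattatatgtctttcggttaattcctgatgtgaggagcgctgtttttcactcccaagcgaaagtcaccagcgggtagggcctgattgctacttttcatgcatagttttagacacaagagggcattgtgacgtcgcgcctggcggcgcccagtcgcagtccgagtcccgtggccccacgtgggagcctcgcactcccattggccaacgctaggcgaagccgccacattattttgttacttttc
Wls, chr3:159839400-159839649, plus strand: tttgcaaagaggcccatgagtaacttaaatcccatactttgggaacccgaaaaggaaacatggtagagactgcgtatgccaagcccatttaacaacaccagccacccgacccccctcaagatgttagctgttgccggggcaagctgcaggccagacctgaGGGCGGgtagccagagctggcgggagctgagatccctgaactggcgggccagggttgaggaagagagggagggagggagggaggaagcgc
Axin2, chr11:108920099-108920348, plus strand: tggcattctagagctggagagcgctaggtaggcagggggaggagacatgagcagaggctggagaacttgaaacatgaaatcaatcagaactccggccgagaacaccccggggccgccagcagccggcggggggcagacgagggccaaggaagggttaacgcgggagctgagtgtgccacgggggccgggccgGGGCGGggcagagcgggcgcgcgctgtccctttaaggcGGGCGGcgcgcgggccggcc
The TCF/LEF core, searched as CTTTGAT or CTTTGAA on both strands, was in none of these 4 windows. It was in 2 of the 44 member windows (4.55%), against 7.48% of all 32851 windows. These matches are shown with 11 bases on each side and the core in capitals, read on the other strand for Gsk3a.
Wnt5b, chr6:119449440-119449468, minus strand: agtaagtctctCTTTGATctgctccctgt
Gsk3a, chr7:25237992-25238020, minus strand: tgactgtgtttTTCAAAGtgcttccaagt
GC boxes were in 34 of the 44 member windows (77.3%), against 32.7% of all windows. The 4 overlapping windows of Csnk1e held 6, 5, 4 and 2, with 2 in the window shown, and the windows shown held 2 for Axin2, 1 for Wls and 0 for Tle3. A match of letters is a description and not a bound site, and several windows of a gene overlap.

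Of the 3 TCF/LEF factors tested, 0 were called in any comparison. Tcf7l2 (chromosome 19, 55741820 to 55933654, plus strand), a factor that takes beta-catenin to its target genes, was the only tested member above Normal in every NMO+CL library. Its level was 139, 141 and 152 CPM in Normal, 138, 121 and 185 in NMO, and 159, 212 and 245 in NMO+CL. NMO+CL lay wholly above Normal and overlapped NMO. The log2 fold change was 0.51 in NMO+CL against Normal (standard error 0.22, unadjusted p = 0.0298, adjusted p = 0.163) and 0.47 against NMO (unadjusted p = 0.0432, adjusted p = 0.379), and neither passed the adjusted threshold. Lef1, with 18, 39 and 31 counts in Normal, 11, 8 and 20 in NMO, and 1, 33 and 28 in NMO+CL, was too sparse to compare closely. Its log2 fold change of -1.33 in NMO against Normal had a 95% interval of -3.99 to 1.33. Tcf7l1, a factor that mainly represses, ranged from 0 to 69 counts.

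Transcripts of beta-catenin itself (Ctnnb1) were not called in any comparison. They stood at 207, 226 and 247 CPM in Normal, 264, 268 and 200 in NMO, and 231, 241 and 206 in NMO+CL, and the groups overlapped throughout. The log2 fold change in NMO+CL against Normal was -0.005 with a 95% interval of -0.40 to 0.39, and it turned positive under some settings, as with library totals alone (0.052). The intervals were -0.29 to 0.50 in NMO against Normal and -0.50 to 0.28 in NMO+CL against NMO. Exons at its 3′ end overlap Ulk4 on the other strand, and these values are transcript levels, which do not report the protein whose stability the pathway sets. Ctnnbip1, which blocks the binding of beta-catenin to TCF factors, ranged from 48.7 CPM in Normal replicate 1 to 206 CPM in NMO+CL replicate 3 and was not called.

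Among the destruction complex genes, 0 of the 5 tested were called in any comparison. Gsk3b, a kinase that marks beta-catenin for destruction, had 334, 310 and 286 CPM in Normal, 275, 242 and 347 in NMO, and 214, 244 and 271 in NMO+CL. All NMO+CL libraries were below all Normal libraries, with a log2 fold change of -0.35 (standard error 0.19, adjusted p = 0.299). Apc, the scaffold of the complex, had 172, 134 and 121 CPM in Normal, 121, 80.3 and 105 in NMO, and 133, 105 and 93.0 in NMO+CL. Its highest NMO library stood level with its lowest Normal library, and its log2 fold change of -0.48 in NMO against Normal (unadjusted p = 0.0498) had an adjusted p of 0.525. Csnk1a1, the kinase that primes beta-catenin, had log2 fold changes of 0.13, -0.21 and -0.08 in the 3 comparisons in the order above, and Axin1 had -0.24, -0.01 and -0.25. Gsk3a was above Normal in all NMO libraries, at 32.6, 29.6 and 30.7 against 26.3, 25.8 and 24.9 CPM, with a log2 fold change of 0.27 (adjusted p = 0.917). Exons at its 3′ end overlap 9130221H12Rik on the other strand.

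Receptors and co-receptors gave 0 calls among 8 tested. Lrp6, the main co-receptor with Frizzled, had 60.5, 38.9 and 61.0 CPM in Normal, 63.3, 47.7 and 51.9 in NMO, and 31.5, 38.5 and 42.5 in NMO+CL. NMO+CL lay below NMO in every library and overlapped Normal through Normal replicate 2. In log2 terms NMO+CL differed by -0.53 from NMO (adjusted p = 0.446) and by -0.51 from Normal (adjusted p = 0.291). Ryk, a receptor for Wnt with a kinase-like domain, had 44.4, 44.6 and 40.8 CPM in Normal, 37.5, 39.8 and 22.1 in NMO, and 30.7, 29.1 and 26.1 in NMO+CL. Both groups of injected mice lay below Normal, with log2 fold changes of -0.38 (adjusted p = 0.787) and -0.60 (adjusted p = 0.258). Lrp5 gave log2 fold changes of -0.34, -0.39 and -0.73 in the 3 comparisons.

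Frizzled receptors were sparse. Fzd7 had 82, 40 and 79 counts in Normal, 105, 118 and 33 in NMO, and 65, 17 and 52 in NMO+CL. Fzd5 had 0, 60 and 17 counts in Normal, 30, 17 and 9 in NMO, and 34, 15 and 49 in NMO+CL. Libraries of a group thus differed by more than the groups did, and the sign of both genes in NMO against Normal changed between settings. Fzd4, known for vascular Wnt signalling, ran from 15 to 86 counts and gave a log2 fold change of -1.11 in NMO+CL against Normal (adjusted p = 0.433). Fzd8 ran from 7 to 36 counts and Fzd2 from 0 to 13.

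Dishevelled carries the signal from the receptors. Dvl1 had 33.1, 24.6 and 29.6 CPM in Normal, 36.0, 37.0 and 54.3 in NMO, and 28.5, 45.0 and 46.8 in NMO+CL. NMO lay above Normal in every library, with a log2 fold change of 0.54 (adjusted p = 0.631). Dvl3 had 19, 1 and 14 counts in Normal, 0, 19 and 0 in NMO, and 0 in all 3 NMO+CL libraries. Its Normal mean was 3.94 times a floor of 3 counts per NMO+CL library, a ratio that leaves out the spread between Normal libraries. The edgeR test of NMO+CL against Normal gave Dvl3 an unadjusted p of 0.0389 and an adjusted p of 0.194. Dvl2 ranged from 57 to 154 counts and was not called. Exons of Dvl1 overlap Tas1r3, and those of Dvl2 overlap Acadvl, on the other strand.

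Porcn, the enzyme that adds the lipid to Wnt proteins before Wls carries them, had 8.12, 8.26 and 10.2 CPM in Normal, 9.16, 14.2 and 19.8 in NMO, and 8.01, 2.59 and 5.59 in NMO+CL. NMO+CL lay below both other groups in every library. Its log2 fold change was -1.41 against NMO (standard error 0.59, unadjusted p = 0.0282, adjusted p = 0.318) and -0.71 against Normal (adjusted p = 0.566). Both secretion genes thus had their lowest library in NMO+CL replicate 2. Znrf3, a ubiquitin ligase that removes Frizzled, ranged from 13 counts in Normal replicate 1 to 112 in NMO replicate 1. Nlk, a kinase that phosphorylates TCF/LEF factors, had log2 fold changes of 0.003, 0.14 and 0.14 and overlapped between all groups.

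Related members with similar roles were also compared as shares of their summed counts, which do not depend on library scaling. Tle3 made up 37.4%, 35.8% and 39.5% of the Tle3 and Tle4 counts in Normal, 33.2%, 36.1% and 41.7% in NMO, and 25.5%, 27.3% and 26.4% in NMO+CL. All NMO+CL libraries lay below all 6 others. The means were 37.5% ± 1.86, 37.0% ± 4.34 and 26.4% ± 0.906 (SD, n = 3), and a two-sided exact permutation test gave p = 0.1 for NMO+CL against either group, the smallest p that 3 against 3 libraries allow. Tle4 itself had log2 fold changes of -0.36, 0.32 and -0.03 in the 3 comparisons, with its NMO libraries below both other groups. Tle1, the third Groucho member, ran from 31 to 110 counts and was not called.

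Bcl9l and Bcl9 are relatives that both tie beta-catenin to Pygopus. Bcl9l made up 84.1%, 87.7% and 83.3% of their summed counts in Normal and 75.1%, 74.8% and 72.5% in NMO, without overlap (exact permutation p = 0.1). In NMO+CL the share was 56.2%, 63.8% and 87.0%, and it overlapped both other groups (exact permutation p = 0.3 against Normal and 0.7 against NMO). Bcl9 lay above its Normal range in every NMO library, at 50.0, 48.5 and 49.1 against 36.9, 32.3 and 30.1 CPM, and was not called (log2 fold change 0.57, adjusted p = 0.591). Casein kinase 1 was measured as a pair as well, and Csnk1e made up 70.2% ± 5.03 of the Csnk1d and Csnk1e counts in Normal, whereas NMO had 68.3% ± 3.94 and NMO+CL had 63.6% ± 5.36 (SD, n = 3; exact permutation p = 0.7 for NMO and 0.3 for NMO+CL against Normal). Csnk1d had a log2 fold change of -0.32 in NMO+CL against Normal. Pygo2, the Pygopus partner of both Bcl9 proteins, ran from 35.8 to 91.0 CPM and was not called. Gsk3b made up 92.7%, 92.3% and 92.0% of the Gsk3a and Gsk3b counts in Normal and 89.4%, 89.1% and 91.9% in NMO, without overlap (exact permutation p = 0.1), and 84.9%, 92.5% and 91.6% in NMO+CL. The shares of Dvl1 with Dvl2, and of Lrp6 with Lrp5, overlapped between all groups, at means of 62.1% ± 9.72, 76.5% ± 8.13 and 74.3% ± 8.19 for Dvl1 and 81.1% ± 0.366, 85.1% ± 9.18 and 83.7% ± 5.65 for Lrp6 in Normal, NMO and NMO+CL (SD, n = 3). In all, 6 pairs and 3 comparisons were examined in this way, and none of the 18 tests could reach 0.05. Adjusted over the 18 tests by Benjamini and Hochberg, the lowest p was 0.45. Reads that align to both genes of a pair may have been counted at each.

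**Figure D4:**
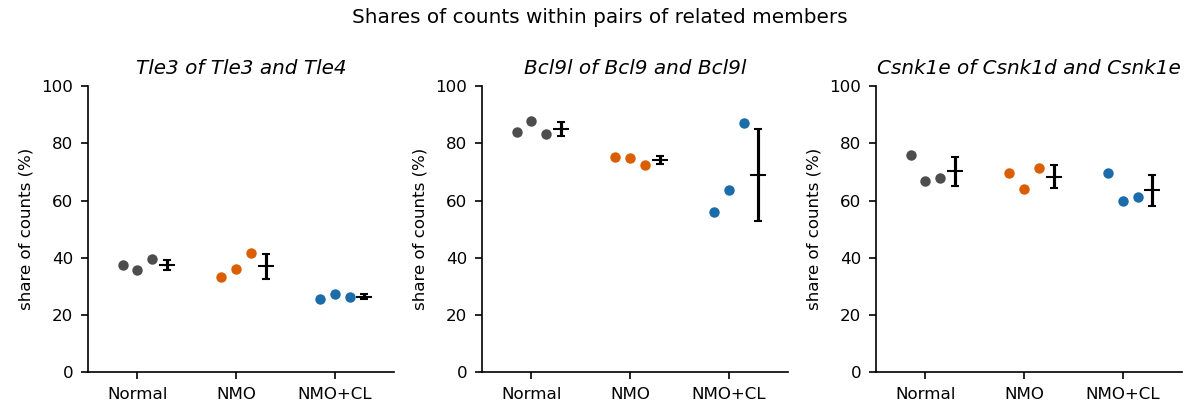
Share of summed counts in percent (vertical axis, 0 to 100) of Tle3 with Tle4, Bcl9l with Bcl9 and Csnk1e with Csnk1d, with points for libraries and black bars for the mean and SD of 3 libraries. The share of Tle3 is 25.5% to 27.3% in NMO+CL and 33.2% to 41.7% in the other libraries.

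Of 123 further Wnt pathway genes in the files, 70 were tested. In NMO against Normal 0 were called by edgeR and 3 passed an unadjusted p under 0.05 (4.29%; all tested genes 9.51%), Ccnd1 above Normal and Birc5 and Tcf4 below it. DESeq2 called Ccnd1. In NMO+CL against NMO 1 was higher (1.43%; all tested genes 0.529%) and 0 were lower (all tested genes 1.07%). In NMO+CL against Normal 2 were higher (2.86%) and 2 lower (2.86%), below the 4.78% and 4.43% of all tested genes. Ligands were scarce, with 2 of 17 tested and 9 at 0 counts in every library, among them Wnt1, Wnt7b and Wnt11. Secreted antagonists were likewise scarce, with 1 of 16 tested and 7 at 0 in every library, among them Dkk1, Sost and Wif1. The cytoplasmic regulators were better covered, with 25 of 28 tested.

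The higher genes were Id2 and Ccnd2, both among common targets of beta-catenin and TCF and both known to respond to other signals too. Tcf4, which was lower, was in the same list of targets. The 13 targets tested had a median log2 fold change of -0.30 in NMO+CL against Normal, with values from -0.89 to 2.18. All tested genes had a median of -0.01. Id2, an inhibitor of helix-loop-helix factors, had 225, 247 and 235 CPM in Normal, 324, 304 and 217 in NMO, and 538, 745 and 561 in NMO+CL. It rose by 1.38 on the log2 scale against Normal (adjusted p = 2.93e-04) and by 1.12 against NMO (adjusted p = 0.00751). The call against NMO was lost without NMO+CL replicate 2 (adjusted p = 0.0645), and the call against Normal held in all 16 alternatives. Microglia markers moved in the contrast against NMO too, with 4 of 12 lower, namely P2ry12 (-2.22), Gpr34 (-2.37), Siglech (-1.17) and Olfml3 (-0.77). Kdr was higher there (1.86, adjusted p = 0.0272), as was Pdgfra, with 1, 0 and 3 counts in NMO and 102, 23 and 61 in NMO+CL. The part of cell composition in the results for Id2, Ccnd2, Aes and Tcf4 was not tested in either contrast. Ccnd2, the cell cycle regulator cyclin D2, had 6.52, 5.86 and 11.3 CPM in Normal, 8.91, 5.14 and 13.1 in NMO, and 20.0, 38.5 and 21.7 in NMO+CL. NMO+CL lay above both other groups in every library, and the gene rose by 1.76 on the log2 scale against Normal (adjusted p = 0.0338). That call was lost without any single Normal replicate or NMO+CL replicate 2, with adjusted p up to 0.205. Ccnd1, cyclin D1, which was named after its values were seen, had 306, 282 and 259 CPM in Normal, 450, 533 and 358 in NMO, and 472, 423 and 385 in NMO+CL. Both model groups lay above Normal in every library, with a value of 0.59 in NMO+CL against Normal that missed the threshold (adjusted p = 0.0542) and was called in 9 of 16 alternatives, DESeq2 and limma-voom included. The lower genes were Aes and Tcf4. Aes, a short Groucho-family protein, had 87.5, 114 and 87.3 CPM in Normal, 70.3, 74.8 and 65.8 in NMO, and 53.6, 49.2 and 52.1 in NMO+CL, with a log2 fold change of -0.90 against Normal (adjusted p = 0.0138), a call lost without Normal replicate 2 or NMO+CL replicate 2 (adjusted p up to 0.0942). Tcf4, a helix-loop-helix factor that is distinct from Tcf7l2 despite a shared older name, stood at 518, 539 and 603 CPM in Normal, 428, 402 and 420 in NMO, and 297, 280 and 333 in NMO+CL. Its 3 groups did not overlap, and it had a log2 fold change of -0.87 in NMO+CL against Normal (adjusted p = 0.0027), a call that held in all 16 alternatives. Axin2 and Sp5, which are common readouts of the pathway, gave no comparison, at 13 counts in 1 library and at 0 in all libraries.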

How the data were processed

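RNA of sorted microglia was measured in 9 QuantSeq libraries, a method that counts polyadenylated transcripts by their 3′ ends. The authors aligned single-end reads with Bowtie2 (mm10 in the submitters' processing notes) and counted unique and multiple alignments per gene with Bedtools, and they deposited raw read counts. Annotation, strand and versions are not given in the sources used here. Replicate numbers and groups were taken from the sample titles. The treatment field names only clodronate and lists the NMO libraries as untreated, whereas their injury model field gives NMO. Libraries of a group differed beyond sampling noise, as the chi-square per degree of freedom between their pairs was 21.9 to 51.1. The 35 symbols on several entries (79 entries) were summed. A read aligned to several places may be counted at each.

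The analysis used edgeR 4.0.16 in R 4.3.3. The filterByExpr function selected genes (minimum count 10, minimum total 15), TMM factors scaled the library sizes, and a quasi-likelihood model with 1 coefficient per group was fitted to all 9 libraries. The F-tests were two-sided, the Benjamini-Hochberg adjustment covered 12292 genes within each comparison, and calls were made at adjusted p under 0.05. CPM are counts relative to the scaled library sizes. Alternatives used DESeq2 1.42.0, limma 3.58.1 (voom), other scalings and filters, the replicate number as a block, and each library left out in turn. Total counts ran from 5788234 to 7837219 per library. Floors on counts cover counting error only. The 95% intervals of log2 fold changes come from the fit and also take in the spread between libraries.

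The members and lists were chosen with earlier results of these data known. Values of every library are given for members called, for those at an unadjusted p under 0.05 and for Ctnnb1, Gsk3b, Axin2, Lrp6, Tcf7l2, Lef1, Fzd5 and Fzd7. Values of other members, such as those whose groups did not overlap, were added after they were seen. Gene coordinates are from GENCODE M21 on GRCm38. No source says that a replicate number marks a shared day or animal.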

Additional observations from a re-analysis of the deposited data

How the results depend on the processing

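The limits of these libraries are 3 pools a group, wide spread between pools and sparse reads of receptors and ligands. In NMO+CL against Normal, Csnk1e kept its call in 13 of 16 alternatives, Tle3 in 10, Bcl9l in 9 and Wls in 6, and all 4 kept their direction. Adjusted p over the alternatives ran from 0.00236 to 0.108 for Csnk1e, 0.0103 to 0.115 for Tle3, 5.12e-04 to 0.166 for Bcl9l and 0.0263 to 0.224 for Wls. With limma-voom Wls was lost (adjusted p = 0.0515). Members called lower numbered 1 with library totals alone (Csnk1e), 2 with only the 2 groups compared (Csnk1e and Tle3), and 0 to 4 with each library left out. With the replicate number as a block Wls was lost (log2 fold change -0.82, adjusted p = 0.0690), and so members called lower were 3. Correlations between libraries with the same number were -0.0195 to 0.0382, and the numbers were not taken as pairs. The replicate block also left 1 gene called lower in NMO against Normal, and in the other counts it stayed within 1.5 times. The causes of these differences were not tested.

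Over all genes, NMO against Normal gave 58 higher and 3 lower. The numbers were 95 and 1 with library totals alone, 162 and 60 with DESeq2, 37 and 6 with limma-voom, 185 and 38 with no filter on low counts, and 32 higher with only the 2 groups compared. NMO+CL against NMO gave 65 higher and 131 lower, then 193 and 272 with DESeq2, 180 and 316 with no filter, and 39 and 34 with only the 2 groups. Leaving out a library gave 19 to 71 higher and 1 to 4 lower in NMO against Normal, 18 to 75 and 33 to 169 in NMO+CL against NMO, and 335 to 647 and 303 to 618 in NMO+CL against Normal. The member median then ran from -0.20 to -0.10, from -0.21 to -0.13 and from -0.44 to -0.18, and in NMO against Normal it was 0.0072 with library totals alone. Members called lower in NMO+CL against NMO were 0 or 1. Other Wnt genes were 1 higher with DESeq2 in NMO against Normal, and in NMO+CL against NMO 1 lower with no filter and 0 to 1 higher with a library left out. In NMO+CL against Normal they were 4 lower with DESeq2, and 1 to 3 higher and 1 to 3 lower with a library left out.

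Members that were not called changed sign in a few settings. Gsk3b in NMO against Normal was 0.0014 with library totals alone, and Ctnnb1 in NMO+CL against Normal was 0.052 with library totals alone, 0.0025 with DESeq2 and 0.00075 with no filter. In NMO against Normal, Fzd7 was -0.017 with DESeq2 and Fzd5 was 0.85 with limma-voom. With a library left out, log2 fold changes in NMO against Normal ran from -0.16 to 0.11 for Lrp6, -1.30 to 0.75 for Fzd5, -0.27 to 0.34 for Fzd7 and -0.15 to 0.16 for Tcf7l2. Those of Apc in NMO+CL against NMO ran from -0.044 to 0.27, and in NMO+CL against Normal those of Fzd5 ran from -0.22 to 1.82, of Ctnnb1 from -0.061 to 0.060 and of Lef1 from -1.01 to 0.080.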
